A study of Mus musculus with 16 samples.

Results

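Mutant-shared sites are genomic positions at which both Oct4 mutants of the series were found by ChIP-seq and Oct4 itself was not. They were chosen by the deposited peak summits: a summit of Oct4defSox2 at day 1, on chromosomes 1 to 19, X or Y, with a summit of Oct4 S151M within 100 bp, no summit of Oct4 at day 1, 5 or 7 within 100 bp, and no summit of Oct4defSox2 at day 5 within 100 bp. By that rule 8346 of the 31060 Oct4defSox2 day 1 summits were mutant-shared sites, out of 227116 summits in all libraries of the series. Presence in the mutant libraries and absence from the Oct4 libraries therefore follow from the choice and are not results.

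All libraries came from OG2 MEFs, fibroblasts of mouse embryos that carry a GFP transgene under the Oct4 promoter. Retroviruses delivered Sox2 and Klf4 (together SK) with 1 POU factor, and day 0 was the change into iCD1, a chemically defined medium. The groups used here were Oct4 in Oct4-SK cells at days 1, 5 and 7, the mutant Oct4defSox2 at days 1 and 5 of its own cocktail, the mutant Oct4 S151M at day 1 of its cocktail, Sox2 at days 1 and 5 with each of Oct4, Oct6 or Oct4defSox2 as the POU factor, and Oct6 M151S in its cocktail, labelled day 1 in its title and day 2 in its characteristics. Every group held Sox2 and Klf4, every group received its factors by retrovirus, and every group was 1 library, so no value has a replicate. The summit lists do not tell apart Oct4 made from the cells' own gene. Comparing Oct4, Oct6 and Oct4defSox2, the paper reports that only the Oct4 cocktail activated that gene. The 3 inputs were not analysed here.

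Oct4, the product of Pou5f1, reads DNA with the POU-specific domain and the POU homeodomain, which are joined by a flexible linker. On the composite SoxOct element it sits beside Sox2, and on palindromic elements called MORE, with the MORE+1 variant spaced by 1 further base, POU proteins bind as homodimers. Oct4defSox2 is an Oct4 changed at its Sox2 interface, and Oct4 S151M carries at a dimer-interface position the residue that Oct6 has there. The question for these sites was which DNA elements and which partner the mutants met at places that Oct4 was not found to occupy.

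The lists behind the rule differed widely in yield. Oct4 S151M had 101170 summits, Oct4defSox2 day 1 had 31070, and Oct4 had 8216, 4854 and 3638 at days 1, 5 and 7. The lists give no read depth, and none was used here, so an Oct4 summit that was missed and an Oct4 summit that was not there cannot be told apart. When both mutant lists were held to their 8216 strongest summits, as many as the Oct4 day 1 list had, 397 mutant-shared sites remained under the rule. Of the 31060 Oct4defSox2 day 1 sites, 13496 had an Oct4 S151M summit within 100 bp (43.5%), against 1.08% of points 10 kb to either side. Of these 13496, 8346 were kept, and of those dropped 4090 had an Oct4 summit at day 1, 959 had one at day 5 or 7 alone and the few others had Oct4defSox2 at day 5 without Oct4. The mutant-shared sites matched 8340 Oct4 S151M summits, 8.24% of that list, and 8341 loci remained after joining those within 100 bp of each other.

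Sequences of sites picked by rank show what the elements look like in place. Sites were ranked by the lower of their percentile ranks in the Oct4defSox2 day 1 and Oct4 S151M lists, and the windows reach 100 bp to each side of the Oct4defSox2 summit, with sequence from the RefSeq copy of GRCm38 (mm10), plus strand. Capitals mark the MORE in the first window, the MORE+1 and a single Sox motif in the second, the SoxOct in the third, the octamer in the fourth, a single Sox motif in the fifth and a MORE without mismatch in the sixth, and the promoter window held none of the POU motifs.
MORE, chr1:172983889-172984089: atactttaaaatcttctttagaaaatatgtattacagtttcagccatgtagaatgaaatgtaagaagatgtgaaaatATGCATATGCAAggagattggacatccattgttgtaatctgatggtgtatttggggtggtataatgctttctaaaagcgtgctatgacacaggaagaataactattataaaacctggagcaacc
MORE+1, chr6:12892582-12892782: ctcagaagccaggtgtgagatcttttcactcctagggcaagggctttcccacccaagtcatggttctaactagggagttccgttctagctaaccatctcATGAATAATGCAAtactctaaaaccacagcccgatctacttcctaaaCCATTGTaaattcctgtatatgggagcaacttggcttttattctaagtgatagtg
SoxOct, chr1:133986230-133986430: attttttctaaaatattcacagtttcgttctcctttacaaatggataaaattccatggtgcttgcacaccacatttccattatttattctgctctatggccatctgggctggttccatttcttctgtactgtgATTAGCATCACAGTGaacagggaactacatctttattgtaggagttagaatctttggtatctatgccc
octamer, chr2:113780700-113780900: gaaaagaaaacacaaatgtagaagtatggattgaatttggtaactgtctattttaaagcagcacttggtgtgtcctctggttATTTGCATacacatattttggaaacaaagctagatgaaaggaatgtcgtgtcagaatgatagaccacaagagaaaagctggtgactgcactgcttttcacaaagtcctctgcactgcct
no POU motif, chr15:18925590-18925790: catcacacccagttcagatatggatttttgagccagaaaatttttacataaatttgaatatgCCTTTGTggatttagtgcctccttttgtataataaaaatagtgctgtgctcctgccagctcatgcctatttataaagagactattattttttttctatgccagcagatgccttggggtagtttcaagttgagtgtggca
Oct6 M151S summit, chr6:92569445-92569645: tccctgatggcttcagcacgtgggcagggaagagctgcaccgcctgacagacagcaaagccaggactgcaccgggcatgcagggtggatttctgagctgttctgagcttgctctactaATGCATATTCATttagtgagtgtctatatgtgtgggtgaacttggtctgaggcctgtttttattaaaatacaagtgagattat
promoter, chr19:34255702-34255902: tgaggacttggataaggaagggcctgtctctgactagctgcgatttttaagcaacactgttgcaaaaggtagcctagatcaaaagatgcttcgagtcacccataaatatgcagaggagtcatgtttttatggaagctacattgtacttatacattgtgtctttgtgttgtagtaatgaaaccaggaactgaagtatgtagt

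The 7 sites printed above had these scores, where a score is the −log10 p-value that MACS2 gave the summit in its own library. The first-ranked site of all, with MORE, lay between genes 27221 bp from the start of Olfr16, an olfactory receptor gene, and scored 112 in Oct4defSox2 and 484 in Oct4 S151M. It also had Sox2 summits scoring 7.23 in Oct4defSox2-SK and 9.19 in Oct4-SK cells at day 1. The MORE+1 site, 143272 bp from Thsd7a, scored 53.7 and 296, with no Sox2 summit in any library. The SoxOct site, 50924 bp from Fmod, which encodes the matrix proteoglycan fibromodulin, scored 42.5 and 341, again without Sox2.

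The octamer site lay in an intron of Scg5 and 22154 bp from the start of Grem1, the BMP antagonist gremlin, and scored 53.5 in Oct4defSox2 and 239 in Oct4 S151M. The site without a POU motif lay in an intron of Cdh10, a cadherin gene, and scored 83.4 and 350. The site in an intron of Prickle2, a planar polarity gene, scored 72.4 and 293 and had an Oct6 M151S summit of score 4.02. The promoter site lay 212 bp from the start of Acta2, the smooth muscle actin of contractile fibroblasts, and scored 43.4 and 773, without a summit in any other library. None of these 7 windows was close to an Oct4 summit of any day except the MORE+1 one, at 1043 bp; for the others the distance was 14444 bp or more.

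Of the 5 sites that ranked first among all mutant-shared sites, 3 held MORE, in the Olfr16 region, in an intron of Rasgef1c (scores 86.1 and 456) and in an intron of Rap1gds1 (74.98 and 337). The other two were the Cdh10 site and one in an intron of Immp2l, which had no motif searched for, a GC content of 23.9% and scores of 197 and 316. The MORE matches of the Rasgef1c and Rap1gds1 sites are shown with 9 bases to each side, each with 1 mismatch to the consensus.
Rasgef1c, chr11:49945337-49945348: atacattgtTTGCATATTCATggtggtctg
Rap1gds1, chr3:139024476-139024487: gaaaggtatATGCATAATCATaagaaagtg
Other promoter sites that ranked high were at Pou2f1, the gene of the ubiquitous POU factor Oct1, 10 bp from its start in an untranslated region, with MORE and scores of 57.5 and 141, and in Krit1, 735 bp from the start of Lrrd1, with scores of 39.8 and 731 and Sox2 summits of 14.3 in Oct4defSox2-SK and 25.1 in Oct4-SK cells at day 1.

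The scores of mutant-shared sites are a description, since the lists they come from set the choice. In Oct4defSox2 day 1 they ran from 4.00 to 197 with a median of 12.8, and in Oct4 S151M from 4.03 to 1121 with a median of 21.6. The fold enrichment in Oct4 S151M, over the local background of MACS2, had a median of 7.70. For comparison, sites also bound by Oct4 (the 4090 with Oct4 S151M and Oct4 day 1 summits) had medians of 26.5 and 61.2. Oct4defSox2-only sites (16452 with no Oct4 S151M, no Oct4 and no Oct4defSox2 day 5 summit) had a median of 9.43. Cut at Oct4defSox2 scores of 8.66 and 15.5, mutant-shared sites made up 20.5% of the low, 29.4% of the middle and 30.8% of the high score band.

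The summits of both mutants lay a median of 36 bp apart at these sites. At the edges of the rule, the 424 sites with Oct4 S151M at 91 to 100 bp had a median Oct4defSox2 score of 11.2 and the 370 in the 10 bp just outside had 11.2. On the side of Oct4, the 79 sites left out with an Oct4 summit at 91 to 100 bp had a median of 16.5 and the 65 kept in the next 10 bp had 19.1. The nearest Oct4 summit of any day was within 250 bp at 348 mutant-shared sites (4.17%), between 10 and 100 kb away at 4224 (50.6%) and farther at 2523 (30.2%). The median distance was 51403.5 bp. These distances were not computed for the other classes or for background points, and they are not read as a trait of these sites.

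DNA elements were read in the same windows, on both strands, and shares are given with a Wilson 95% interval. Differences between classes are in percentage points, with an interval after Newcombe at the same level. Only the counting error among sites enters either interval, so they compare libraries and not conditions. A difference is called past counting error when its interval leaves out 0; 30 differences were computed for the 15 main marks and 20 were past it, 8 against sites also bound by Oct4 and 12 against Oct4defSox2-only sites. A further 22 were computed for other marks, such as MORE and MORE+1 apart, RUNX and TEAD strings and Sox2 in any library, and 11 of these were past it.

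MORE or MORE+1, both homodimer elements, marked 1208 mutant-shared sites, 14.5% (13.7 to 15.2). It was at 7.12% of all Oct4defSox2 day 1 sites and 0.785% of windows 2 kb away. Oct4defSox2-only sites held it in 0.973%, a difference of 13.5 points (12.7 to 14.3). It was 46.1 points (41.1 to 51.01) with both mutant lists held to the size of the Oct4 day 1 list, 3.93 points with 1 mismatch fewer and 28.3 points with 1 more, past counting error each time. Sites also bound by Oct4 held it in 15.1%, and the difference of -0.61 points (-1.96 to 0.70) was within counting error. With those equal-sized lists that difference became 8.09 points (2.27 to 13.9), over 397 sites. Equal-sized lists keep only the strongest Oct4 S151M summits. By Oct4 S151M score, MORE or MORE+1 marked 39.3% of mutant-shared sites in the highest of 4 groups and 1.72% in the lowest. The values of this setting are therefore not separate from that score. Here and below, it also counts a weaker Oct4 S151M summit as absent, so Oct4defSox2-only sites then take in sites that have such a summit. MORE alone was found at 10.7% (10.1 to 11.4) and MORE+1 at 3.98% (3.58 to 4.42) of mutant-shared sites, against 5.17% and 2.05% of all Oct4defSox2 day 1 sites. Compared with sites also bound by Oct4, MORE differed by 0.17 points (-0.9999 to 1.31) and MORE+1 by -0.84 points (-1.64 to -0.082), the latter past counting error.

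SoxOct, the element of the Sox2 and Oct4 pair, marked 653 mutant-shared sites, 7.82% (7.27 to 8.42), against 7.5% of all Oct4defSox2 day 1 sites and 1.14% of windows 2 kb away. At sites also bound by Oct4 the share was 18.2%, a difference of -10.4 points (-11.7 to -9.09). At Oct4defSox2-only sites it was 3.24%, a difference of 4.58 points (3.96 to 5.23). This last difference turned to -2.85 points (-4.35 to -0.56) with the mutant lists held to equal size. That setting gave 397 mutant-shared sites and 4017 Oct4defSox2-only sites, the latter including sites with a weaker Oct4 S151M summit. The SoxOct matches were nearly all inexact: 7 of the 653 sites had one without mismatch.

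The octamer ATGCAAAT, the site of a single POU protein, was found at 11.7% (11.01 to 12.4) of mutant-shared sites, 8.83% of all Oct4defSox2 day 1 sites and 1.69% of windows 2 kb away. The difference was 0.39 points (-0.82 to 1.56) from sites also bound by Oct4 and 5.32 points (4.55 to 6.11) from Oct4defSox2-only sites. By Oct4defSox2 score band the former was 0.78 points in the low (-2.80 to 3.56), 2.36 points in the middle (-0.10 to 4.50) and 1.74 points in the high band (0.039 to 3.44), past counting error in the last. With 1 mismatch allowed the former became -6.05 points (-7.85 to -4.23), past counting error in the other direction, and with equal-sized mutant lists the latter became -1.42 points (-4.27 to 2.13). None of the POU motifs was found at 69.9% (68.9 to 70.9) of mutant-shared sites, against 79.4% of all Oct4defSox2 day 1 sites, 61.7% of sites also bound by Oct4 and 90.3% of Oct4defSox2-only sites. The consensus strings find strong matches only, so absence of a match says nothing of weaker ones. POU motifs here are SoxOct, MORE, MORE+1 and the octamer only. PORE, another homodimer element, was at 2.02% of mutant-shared sites, 1.68% of all Oct4defSox2 day 1 sites and 1.26% of windows 2 kb away. It differed by -1.01 points (-1.64 to -0.42) from sites also bound by Oct4 and by 1.03 points (0.70 to 1.38) from Oct4defSox2-only sites. With 1 mismatch fewer, the difference in sites without a POU motif from sites also bound by Oct4 shrank from 8.17 to 0.40 points (-0.97 to 1.81).

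**Figure D1:**
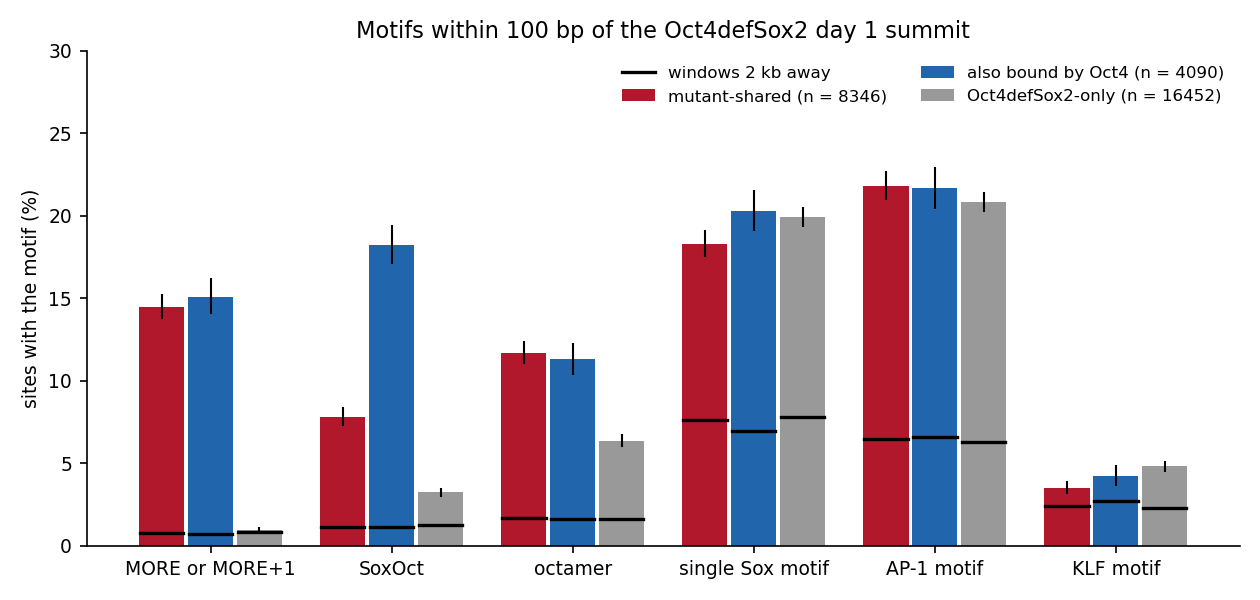
Share of sites with each motif (y axis, percent) at mutant-shared sites, sites also bound by Oct4 and Oct4defSox2-only sites, with Wilson 95% intervals as bars and the share of windows 2 kb away as black lines. MORE or MORE+1 stands at 14.5% and 15.1% in the first 2 classes and at 0.973%, near its 2 kb level, in the last, while SoxOct is highest at sites also bound by Oct4 (18.2%).

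Motifs of other factors separated the classes little. AP-1 strings (TGANTCA, the Fos and Jun element of fibroblast enhancers) were at 21.8% (20.9 to 22.7) of mutant-shared sites, 21.3% of all Oct4defSox2 day 1 sites and 6.47% of windows 2 kb away, and neither difference was past counting error. The difference from Oct4defSox2-only sites, 0.98 points (-0.093 to 2.07), passed it under 4 of the alternatives, at 1.09 to 1.68 points, and turned to -3.56 points (-7.38 to 0.81) with equal-sized mutant lists. Single Sox strings (CCATTGT or CCTTTGT) were at 18.3% (17.5 to 19.2), against 19.5% of all Oct4defSox2 day 1 sites and 7.62% of windows 2 kb away. They differed by -1.99 points (-3.49 to -0.51) from sites also bound by Oct4 and by -1.60 points (-2.63 to -0.57) from Oct4defSox2-only sites. The former difference was -0.99 points (-2.47 to 0.46) without the repeated sequence that is described with the MORE+1 sites. With scores of at least 10 it was -0.98 points, with equal-sized mutant lists -2.64 and in windows at most 50% soft-masked -1.01. None of these was past counting error. The latter was -0.58 points (-1.38 to 0.23) with a motif window of 50 bp, also within it. KLF strings (GGGNGNGGC), the element of Klf4, were at 3.52% (3.15 to 3.94), against 4.48% of all Oct4defSox2 day 1 sites and 2.38% of windows 2 kb away. For KLF strings the difference from Oct4defSox2-only sites, -1.29 points (-1.79 to -0.76), was past counting error and that from sites also bound by Oct4, -0.68 points (-1.44 to 0.03), was not. RUNX strings (TGTGGTT) stood at 8.06%, against 7.77% of all Oct4defSox2 day 1 sites and 4.54% of windows 2 kb away. They differed by 0.98 points (0.28 to 1.69) from Oct4defSox2-only sites and by -0.88 points (-1.96 to 0.15) from sites also bound by Oct4. TEAD strings (CATTCCA) were at 5.03%, against 5.0% of all Oct4defSox2 day 1 sites and 3.53% of windows 2 kb away, with neither difference past counting error. The windows were AT-rich, with a median GC content of 37.3%, beside 38.3% at sites also bound by Oct4 and 39.8% at Oct4defSox2-only sites.

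From the low to the high band of Oct4defSox2 score, MORE or MORE+1 marked 13.2%, 13.8% and 16.1% of mutant-shared sites. The intervals were 11.8 to 14.7, 12.6 to 15.0 and 14.8 to 17.4. At sites also bound by Oct4 the share was 7.89%, 10.8% and 17.0%, and at Oct4defSox2-only sites it was 0.950%, 0.942% and 1.10%. The difference between mutant-shared sites and sites also bound by Oct4 was 5.28 points in the low band (1.66 to 8.12), 2.94 points in the middle (0.28 to 5.30) and -0.90 points in the high band (-2.78 to 0.97). SoxOct differed in the same direction in every band, by -8.29, -8.31 and -11.3 points. The SoxOct share of mutant-shared sites was 7.79%, 7.99% and 7.68% across the bands.

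The Oct4 S151M score sorted mutant-shared sites by MORE or MORE+1 much more than the Oct4defSox2 score did. In 4 equal groups by Oct4 S151M score, from lowest to highest, MORE or MORE+1 marked 1.72%, 4.55%, 12.3% and 39.3%. The intervals were 1.25 to 2.38, 3.74 to 5.54, 10.9 to 13.8 and 37.3 to 41.5. Cut by Oct4defSox2 score the share was 13.1%, 13.4%, 14.1% and 17.3%. SoxOct went from 7.62%, 9.35% and 9.49% in the lower groups by Oct4 S151M score to 4.84% in the highest. Across the 8346 sites the scores of both mutants were nearly unrelated, with Spearman's rho of 0.09, where the 4090 sites also bound by Oct4 gave 0.31; points within a list share library and depth, and these are descriptions.

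**Figure D2:**
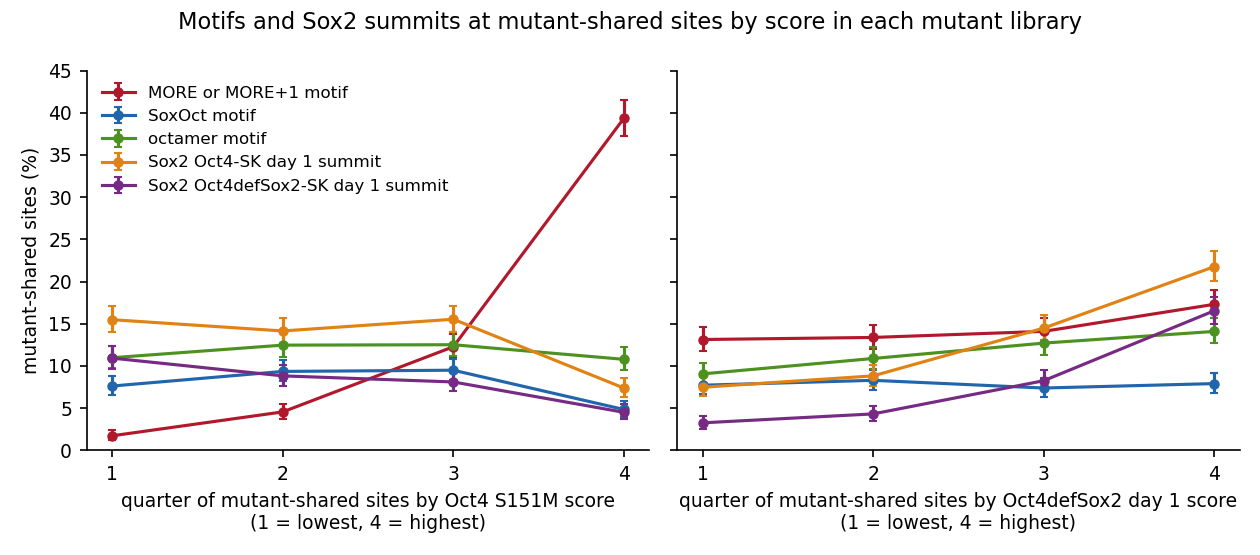
Share of mutant-shared sites (y axis, percent) with MORE or MORE+1, SoxOct, octamer or a Sox2 summit in Oct4-SK or Oct4defSox2-SK cells at day 1, in 4 groups by score in Oct4 S151M (left) and in Oct4defSox2 day 1 (right), with Wilson 95% intervals. MORE or MORE+1 rises from 1.72% to 39.3% with the Oct4 S151M score and from 13.1% to 17.3% with the Oct4defSox2 score. Sox2 summits rise with the Oct4defSox2 score only.

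Grouped by element, 1156 mutant-shared sites held MORE or MORE+1 without SoxOct and 601 held SoxOct without either. A further 52 held both kinds, 703 the octamer alone and 5834 no POU motif. In comparisons by element, the first group is called sites with MORE. Median Oct4 S151M scores were 100.9, 18.8, 71.7, 19.4 and 18.5, and median Oct4 S151M fold enrichments were 21.7, 6.94, 17.8, 6.97 and 6.94. Median Oct4defSox2 scores were 13.7, 12.7, 12.98, 14.6 and 12.1. Within this choice, sites with MORE had the highest Oct4 S151M median, and their Oct4defSox2 median was close to those of the other kinds. Both scores come from lists that set the choice, so these medians are descriptions. At sites also bound by Oct4 the median Oct4 S151M score was likewise highest with MORE, 416 against 46.0 without a POU motif. There the median Oct4defSox2 scores were 43.3 and 23.4, so that those with MORE stood higher in both libraries.

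Elements lay close to the summits. The best MORE match per site lay a median of 23.5 bp from the Oct4defSox2 summit at 896 mutant-shared sites and 12.5 bp from the Oct4 S151M summit, and 54.0% and 76.5% of matches were within 25 bp. At 432 sites also bound by Oct4 the median from the Oct4defSox2 summit was 15.5 bp. For SoxOct at mutant-shared sites the medians were 30 bp from Oct4defSox2 and 27 bp from Oct4 S151M, against 23 bp from Oct4defSox2 at sites also bound by Oct4. Matches of both elements were thus gathered around the summits, and from the Oct4defSox2 summit their median distance was larger at mutant-shared sites.

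**Figure D3:**
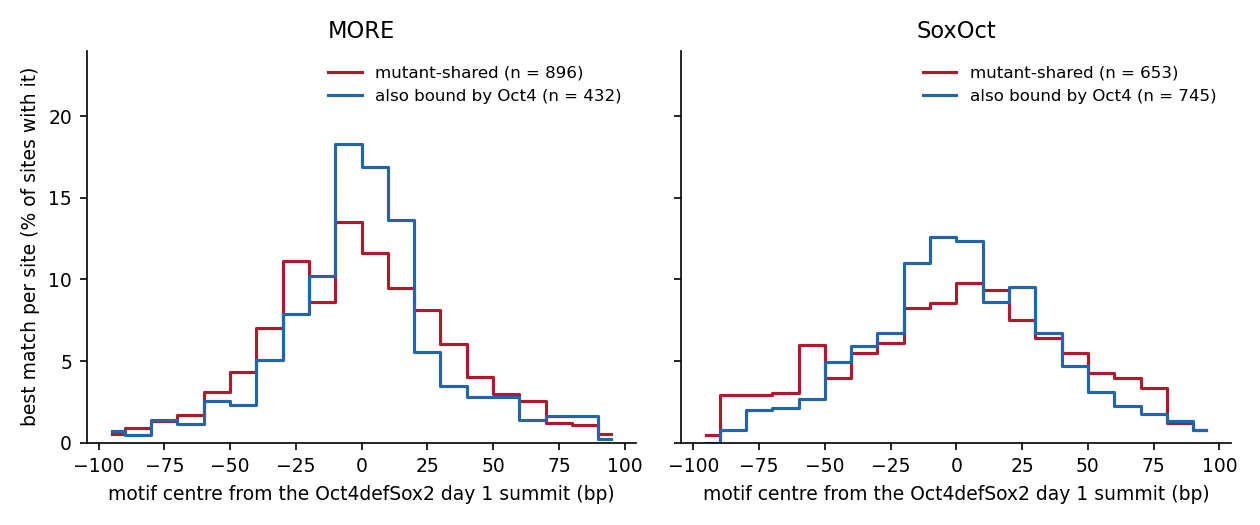
Distance of the best MORE (left) and SoxOct (right) match from the Oct4defSox2 day 1 summit (x axis, bp, 10 bp bins) as a percent of the sites with the motif, at mutant-shared sites and sites also bound by Oct4. Both elements peak at the summit in both classes, and 54.0% of mutant-shared MORE matches lie within 25 bp against 68.1% at sites also bound by Oct4.

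The bases within MORE differed between the classes. Each MORE has 2 arms, which read ATGC or ATGA toward the centre, and 309 mutant-shared sites and 118 sites also bound by Oct4 held one without mismatch. Among the mutant-shared ones 42 had ATGC in both arms (13.6%, 10.2 to 17.9), 180 had 1 of each (58.3%, 52.7 to 63.6) and 87 had ATGA in both (28.2%, 23.4 to 33.4). Among sites also bound by Oct4 these were 37 (31.4%), 69 (58.5%) and 12 (10.2%). Over all 507 Oct4defSox2 day 1 sites with an exact MORE, of which 309 were mutant-shared, they were 16.6%, 57.99% and 25.4%, so that mutant-shared sites lay near the overall shares and sites also bound by Oct4 farther from them. Of 18 such Oct4defSox2-only sites 16 had ATGA in both arms. The difference was -17.8 points (-27.2 to -8.98) for ATGC in both arms and 17.99 points (9.73 to 24.8) for ATGA in both.

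The difference in ATGA between mutant-shared sites and sites also bound by Oct4 was recomputed in parts of the sites. Within the high band of Oct4defSox2 scores, 50 of 143 mutant-shared sites (35.0%) and 11 of 108 sites also bound by Oct4 (10.2%) had ATGA in both arms, a difference of 24.8 points (14.5 to 34.01). In windows at most 50% soft-masked, a setting chosen after the data were seen, it was 18.7 points (9.40 to 26.3). With both mutant lists held to the size of the Oct4 list the difference did not hold. It was -9.09 points (-16.4 to 0.47) for ATGA in both arms and 4.26 points (-12.0 to 21.7) for ATGC in both. That setting keeps only the strongest Oct4 S151M summits. Mutant-shared sites with ATGA in both arms had a median Oct4 S151M score of 33.5, against 241 with ATGC in both. The setting thus selects against ATGA sites and cannot show whether the difference holds without that selection.

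Counted the other way, of the 84 Oct4defSox2 day 1 sites whose exact MORE had ATGC in both arms, 42 were mutant-shared, 37 also bound by Oct4 and 0 Oct4defSox2-only, which allows a share of up to 3.57% (3 counts of the total). Of the 129 with ATGA in both, 87 were mutant-shared (67.4%, 59.0 to 74.9), 12 also bound by Oct4 (9.30%) and 16 Oct4defSox2-only (12.4%). In the Oct4 S151M library the median score of mutant-shared sites fell from 241 with ATGC in both arms to 86.2 with 1 of each and 33.5 with ATGA in both. In the Oct4defSox2 library the medians went the other way, 12.8, 14.2 and 17.4. At sites also bound by Oct4 the Oct4 S151M medians were 672, 384 and 218 and the Oct4defSox2 medians 35.8, 123 and 120. In both classes ATGC in both arms went with the highest Oct4 S151M and the lowest Oct4defSox2 median.

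**Figure D4:**
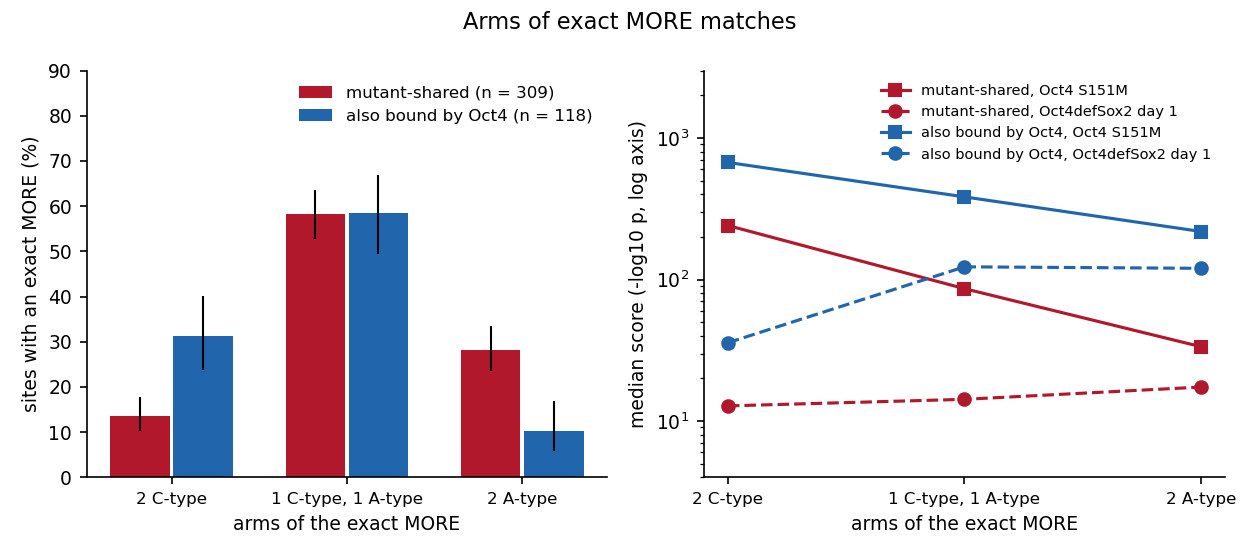
Left, share of sites with an exact MORE (y axis, percent, Wilson 95% intervals) whose arms are both C-type (ATGC), mixed or both A-type (ATGA), at 309 mutant-shared sites and 118 sites also bound by Oct4. Right, median score on a log axis: with more A-type arms the Oct4 S151M median of mutant-shared sites goes from 241 to 33.5 while that of Oct4defSox2 goes from 12.8 to 17.4.

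A repeated sequence carried many of the MORE+1 sites, which was noticed after the values were seen. The string TCATGAATAATGCA, the commonest 14-base string among the 332 mutant-shared sites with MORE+1, was in 72 of them, spread over 20 chromosomes. The reference genome marks these windows almost wholly as repeats, with a median of 99.005% soft-masked bases, and holds the string 1252 times on chromosomes 1 to 19, X and Y. Oct4defSox2 day 1 had 206 sites with it, of which 99 were also bound by Oct4 and 3 were Oct4defSox2-only. Its share was 0.863% (0.686 to 1.08) of mutant-shared sites and 2.42% (1.99 to 2.94) of sites also bound by Oct4. Reads from near-identical copies can be misplaced by an aligner, and the part of this in the counts was not tested.

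The windows with that string share a layout, seen in the MORE+1 sequence printed above from near Thsd7a and in a second copy far from Unc5d on the other strand, in which capitals mark the MORE+1 and a Sox string.
Unc5d region, chr8:30069514-30069714: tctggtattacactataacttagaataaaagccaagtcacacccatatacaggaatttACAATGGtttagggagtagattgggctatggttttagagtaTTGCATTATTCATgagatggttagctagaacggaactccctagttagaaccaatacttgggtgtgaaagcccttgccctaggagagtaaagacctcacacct
A single Sox string was in 61 of the 72 windows, and in 51 of them its centre was 44 bp from the centre of the MORE+1. A Sox2 summit lay within 100 bp of 0 of the 72 in any of the 6 Sox2 libraries, which by the same limit of 3 counts allows a share of up to 4.17%, and of 10 of the 99 copies also bound by Oct4. Median scores of the 72 were 12.4 in Oct4defSox2 and 177 in Oct4 S151M, and those of the 99 were 51.1 and 444. Without sites that hold the string, the MORE or MORE+1 difference from sites also bound by Oct4 was 0.75 points (-0.55 to 2.01). With them it was -0.61.

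Sox2 is the partner that Oct4defSox2 was built not to pair with, and its summits were counted within 100 bp in each library. In Oct4defSox2-SK cells, Sox2 was at 675 mutant-shared sites at day 1, 8.09% (7.52 to 8.69), against 8.73% of all Oct4defSox2 day 1 sites, and at 849 at day 5, 10.2% (9.54 to 10.8), against 13.0%. Points 10 kb away gave 0.078% and 0.216%. The differences from sites also bound by Oct4 were 0.12 points (-0.92 to 1.11) and 0.71 points (-0.42 to 1.80), both within counting error. Within the bands of Oct4defSox2 score the day 1 difference from sites also bound by Oct4 was 1.75 points in the low band (-0.28 to 2.93), 3.82 points in the middle (2.42 to 4.93) and 3.75 points in the high band (2.11 to 5.40), so that Sox2 was more frequent at mutant-shared sites in the upper 2 bands. From Oct4defSox2-only sites, over all bands, the day 1 difference was -1.44 points (-2.16 to -0.69) and the day 5 difference -5.26 points (-6.10 to -4.40). Within bands the day 1 difference was -1.92 points in the low (-2.77 to -0.96), -4.58 points in the middle (-5.66 to -3.46) and -6.37 points in the high band (-8.33 to -4.42), each past counting error. With sharing within 250 bp it was -0.79 points (-1.64 to 0.068) over all bands and no longer past it, while equal-sized mutant lists gave a day 1 difference of -12.1 points (-14.6 to -8.89) and a day 5 difference of -14.7 points (-17.1 to -11.5).

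In Oct4-SK cells, where Oct4 itself had no summit at these positions, Sox2 was at 1096 mutant-shared sites at day 1, 13.1% (12.4 to 13.9), against 12.7% of all Oct4defSox2 day 1 sites. At day 5 it was at 338, 4.05% (3.65 to 4.49), against 5.7%. Sites also bound by Oct4 had 26.2% and 11.6%, so that the differences were -13.1 points (-14.6 to -11.6) and -7.54 points (-8.63 to -6.49). In Oct6-SK cells Sox2 was at 4.15% (3.74 to 4.59) at day 1 and 3.19% (2.83 to 3.59) at day 5. Over all Oct4defSox2 day 1 sites these were 3.97% and 3.78%. The differences from sites also bound by Oct4 were -3.41 points (-4.35 to -2.52) and -2.66 points (-3.50 to -1.87). With equal-sized mutant lists the day 1 difference was -2.09 points (-4.54 to 0.85), within counting error. At least 1 of the 6 Sox2 libraries had a summit at 2110 mutant-shared sites, 25.3% (24.4 to 26.2), against 28.5% of all Oct4defSox2 day 1 sites, and all 6 had one at 18. The share in any library was 37.9% at sites also bound by Oct4, a difference of -12.6 points (-14.3 to -10.8), and 27.6% at Oct4defSox2-only sites, a difference of -2.34 points (-3.49 to -1.18).

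Compared with Oct4defSox2-only sites, Sox2 at day 1 was more frequent at mutant-shared sites in Oct4-SK cells by 4.29 points (3.45 to 5.14) and in Oct6-SK cells by 1.20 points (0.72 to 1.72). With the mutant lists held to equal size these became -12.6 points (-15.5 to -8.94) and -3.78 points (-5.70 to -1.08). The day 5 libraries gave -0.30 points (-0.81 to 0.24) in Oct4-SK and -0.02 points (-0.48 to 0.45) in Oct6-SK cells, and with equal-sized lists -6.75 points (-8.10 to -4.66) and -6.18 points (-7.37 to -4.27), both past counting error. Across the bands of Oct4defSox2 score the Sox2 share in Oct4-SK cells at day 1 was 7.41%, 10.7% and 19.6% at mutant-shared sites, 14.3%, 19.2% and 29.4% at sites also bound by Oct4, and 4.95%, 8.41% and 20.7% at Oct4defSox2-only sites. The difference from Oct4defSox2-only sites was 2.46 points (1.30 to 3.74), 2.24 points (0.99 to 3.55) and -1.06 points (-3.14 to 1.01), so that it was not past counting error in the high band.

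Sox2 was rare at mutant-shared sites with MORE. Of the 1156 with MORE or MORE+1 and no SoxOct, 84 had Sox2 in any library (7.27%, 5.91 to 8.91), against 1793 of the 5834 without a POU motif (30.7%, 29.6 to 31.9), a difference of -23.5 points (-25.3 to -21.5). This difference stayed past counting error and in 1 direction under all alternatives run, between -28.4 and -17.3 points. In the Oct4-SK day 1 library the shares were 2.94% with MORE, 12.8% with SoxOct, 9.10% with the octamer alone and 15.8% with no POU motif. In the Oct4defSox2-SK day 1 library they were 1.99%, 4.83%, 2.70% and 10.4%, and at day 5 they were 1.99%, 4.99%, 3.698% and 13.2%.

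SoxOct sites did not exceed sites without a POU motif in any of the 6 Sox2 libraries. Among day 1 libraries, SoxOct sites differed by -2.96 points (-5.58 to 0.09) in Oct4-SK and by -5.53 points (-7.18 to -3.37) in Oct4defSox2-SK cells. At sites also bound by Oct4, Sox2 in Oct4-SK cells at day 1 was at 29.4% of 700 SoxOct sites, 29.3% of 2525 without a POU motif and 10.5% of 572 with MORE. At day 5 the same shares were 17.0%, 12.3% and 3.67%. Sites with MORE had the lowest share of these 4 kinds in each of the 6 Sox2 libraries, in both classes.

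**Figure D5:**
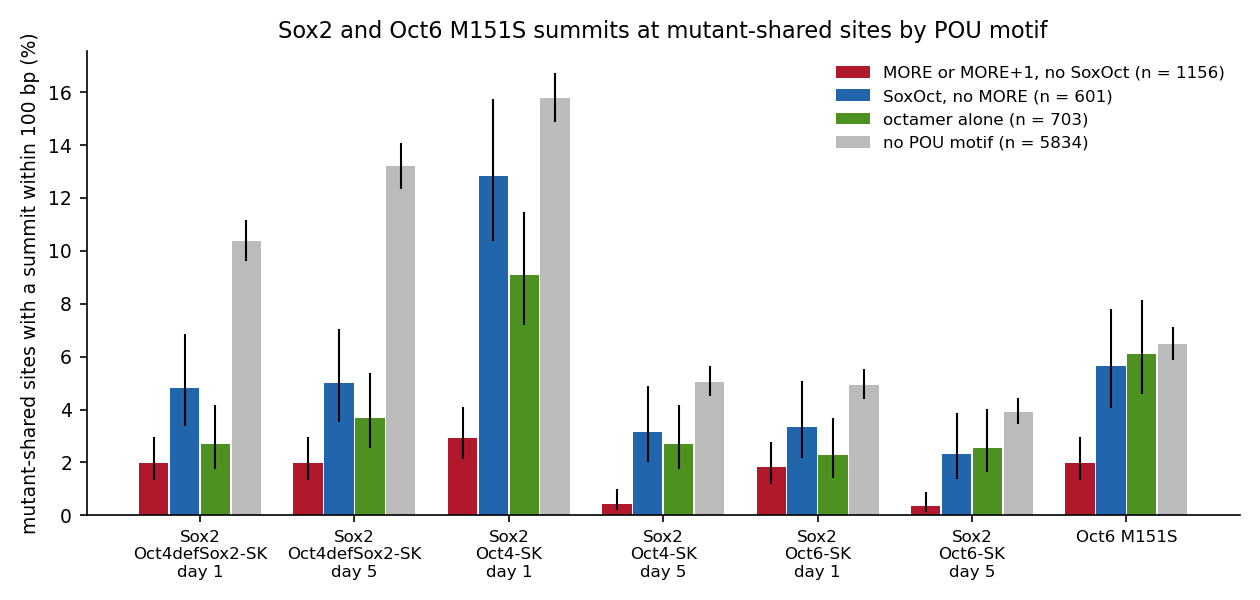
Share of mutant-shared sites (y axis, percent, Wilson 95% intervals) with a summit within 100 bp in each of the 6 Sox2 libraries and in Oct6 M151S, by POU motif. Sites with MORE or MORE+1 are lowest in every library, at 2.94% for Sox2 in Oct4-SK cells at day 1. Sites without a POU motif are highest, at 15.8% there.

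Oct6 M151S, an Oct6 that carries the Oct4 residue at the position exchanged in Oct4 S151M, had summits at 478 mutant-shared sites, 5.73% (5.25 to 6.25), against 5.63% of all Oct4defSox2 day 1 sites and 0.156% of points 10 kb away. That list was called at a looser threshold, with a lowest score of 2.30 where the others began at 4.00 or above, and its median score at mutant-shared sites was 4.73. Sites also bound by Oct4 had a share of 11.2%, a difference of -5.52 points (-6.63 to -4.45), and Oct4defSox2-only sites had 4.08%, a difference of 1.65 points (1.08 to 2.24). The latter became -5.40 points (-7.31 to -2.73) with equal-sized mutant lists. With scores of at least 10 in every library, the former was -0.60 points (-1.11 to -0.19) and the latter 0.26 points (0.056 to 0.51). By band of Oct4defSox2 score the difference from sites also bound by Oct4 was 0.28 points in the low band (-2.27 to 1.94), -1.42 points in the middle (-3.37 to 0.17) and -4.67 points in the high band (-6.27 to -3.08), past counting error in the high band alone. From Oct4defSox2-only sites it was 0.67 points (-0.14 to 1.61), 0.19 points (-0.62 to 1.07) and 0.92 points (-0.53 to 2.36), within counting error in each band. By element it was at 1.99% of mutant-shared sites with MORE, 5.66% with SoxOct, 6.12% with the octamer alone and 6.46% with no POU motif. At sites also bound by Oct4 it was at 8.39% of those with MORE, 8.29% with SoxOct, 18.5% (14.2 to 23.9) of the 248 with the octamer alone and 303 of the 2525 with no POU motif (interval 10.8% to 13.3%), so that MORE was not lowest there.

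In the genome, 47.9% of mutant-shared sites lay in introns, 44.4% between genes and 2.55% in exons, against 47.3%, 43.8% and 2.46% of all Oct4defSox2 day 1 sites. A share of 5.07% (4.62 to 5.56) lay in promoters, within 1 kb of a transcription start of the GENCODE M21 annotation. Promoters held 6.39% of all Oct4defSox2 day 1 sites, 5.28% of sites also bound by Oct4 and 6.99% of Oct4defSox2-only sites. The differences were -0.21 points (-1.07 to 0.60) and -1.92 points (-2.52 to -1.30). The latter turned to 0.54 points (-1.50 to 3.37) with equal-sized mutant lists and was -0.71 points (-1.45 to 0.050) with scores of at least 10, past counting error in neither. The median distance to the start of a coding gene was 66907.5 bp. By chromosome, mutant-shared sites made up between 24.2% (chromosome 13) and 30.7% (X) of the Oct4defSox2 day 1 sites, apart from 0 of the 1 site on Y. Soft-masked sequence filled over 50% of the window at 9.26% of mutant-shared sites, 25.9% of those with MORE+1 and 12.9% of those with MORE. These were 10.8%, 50.3% and 14.8% at sites also bound by Oct4, and at Oct4defSox2-only sites 7.48%, 14.9% and 10.6%.

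Assigned to the coding gene with the nearest start, mutant-shared sites fell on 4268 genes, 336 of them with 5 or more. The genes with most were Flrt2, which encodes a cell-surface protein of fibroblast growth factor signalling and axon guidance (26 of its 64 Oct4defSox2 day 1 sites), and Adgrl3, the adhesion receptor latrophilin-3 (21 of 61). They were followed by Cdh2, which encodes N-cadherin (17 of 53), the ephrin receptor gene Epha7 (17 of 57), the ubiquitin ligase gene Hace1 (16 of 37), the cAMP phosphodiesterase gene Pde4d (16 of 54), the Slit receptor gene Robo1 (16 of 49) and the teneurin gene Tenm3 (15 of 47). Efnb2, the ephrin-B2 gene (14 of 41), Etl4 (14 of 33) and Zfp608 (14 of 45) had equal counts. Over all genes 26.9% of Oct4defSox2 day 1 sites were mutant-shared.

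Counts were not corrected for the length of sequence nearest each gene, and many of these sites were far away. The median distance to the start was 748308 bp for Flrt2 and 464967 bp for Adgrl3, and 85091.5 bp for Pde4d, whose 16 sites were all inside the gene. At Adgrl3 9 of the 21 sites held MORE or MORE+1, with an Oct4 S151M score of up to 787, and at Tenm3 5 of 15 did. At Cdh2 0 of 17 and at Epha7 0 of 17 did, where the 17 sites of Cdh2 had no POU motif at all. The strongest site of Cdh2 scored 98.7 in Oct4defSox2.

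Gene lists drawn up for reprogramming of fibroblasts were read the same way, each as its share of mutant-shared sites among the Oct4defSox2 day 1 sites nearest its genes, beside the 26.9% over all genes. Regulators of mesenchymal fate had 78 of 253 (30.8%), on 23 of 40 genes. Among them were Zeb2, a repressor of epithelial genes (12 of 35), Foxp1, a forkhead factor (7 of 24), and Meis2, a homeodomain factor (6 of 12). Members of TGF-beta and BMP signalling had 56 of 175 (32.0%), on 18 of 36 genes, led by the activin receptor gene Acvr2a (10 of 18), Inhba, which encodes an activin subunit (8 of 29), and the BMP receptor gene Bmpr1b (7 of 12). Fibroblast matrix genes had 49 of 156 (31.4%), on 16 of 39 genes, with tenascin-C (Tnc, 7 of 17), the collagens Col3a1 (6 of 13) and Col12a1 (6 of 13, 3 of them with MORE), and the Acta2 promoter site printed above.

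Pluripotency genes had 20 of 79 (25.3%), on 10 of 32 genes, among them Dppa4 (5 of 11) and the nuclear receptor gene Nr5a2 (4 of 11). The closest of these sites were 365516 bp from the start of Dppa4 and 420782 bp from that of Nr5a2. Pou5f1 had 0 of 3 and Sox2 0 of 5, and Nanog and Esrrb were nearest to no Oct4defSox2 day 1 site of any class. Neural progenitor genes had 32 of 99 (32.3%), on 14 of 32 genes. Nr2f1 had 6 of 19, Nr2f2 6 of 23 and Pax6 3 of 4. The closest lay 257107 bp from the start of Nr2f1, 25829 bp from that of Nr2f2 and 11 bp from that of Pax6. Sox genes had 20 of 102 (19.6%), led by Sox6 (7 of 24), and Klf genes 26 of 117 (22.2%), led by Klf6 (8 of 39). POU genes had 15 of 52 (28.8%), among them the promoter site at Pou2f1. Pou3f3 had 4 of 5, the closest 235325 bp from its start. Wnt and Fgf genes had 38 of 162 (23.5%), epithelial genes 6 of 21 (28.6%) and AP-1 genes 3 of 19 (15.8%). The lists stood on both sides of the share over all genes, most of them within a few points of it, and no list was tested.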

How the data were processed

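ChIP-seq was performed by the authors in OG2 MEFs with antibodies to Oct4 (used for Oct4 and both Oct4 mutants), Sox2 and Oct6. Per the labels and the study's methods, paired reads were aligned to mm10 with Bowtie2 2.2.5, filtered by mapping quality and for duplicates with SAMtools, and peaks were called with MACS2 in each library at a p-value of 0.0001. The summit score deposited by the authors is the −log10 p-value of a peak within its library. For Oct4 S151M the deposited peak table also gave fold enrichment (a ratio) and −log10 q. The lowest Oct6 M151S score was 2.30, below that threshold.

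The 16 samples formed groups of 1 library, and 13 summit lists were used. Sites within 100 bp were counted as shared. Motifs were consensus strings on both strands of GRCm38: SoxOct (up to 2 mismatches), MORE and MORE+1 (up to 1), the octamer (0) and those spelled out in the text. A MORE can overlap a SoxOct or octamer match. Windows 2 kb away, and points 10 kb away for sharing, gave the background. The lists give no read depth, and none was used here. Intervals (Wilson, Newcombe; 95%) cover counting error only, and no p-value was computed.

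Named sites were the first 5 of all and the first 3 of each element, of Sox2 in Oct4defSox2-SK day 1, of Oct6 M151S and of promoters, by the lower of both percentile ranks, and the text gives a part of them. Named genes were the 10 with most sites, with ties added, and those with most sites in each list, of which 1 is not reported here. The members, lists and tests were chosen with earlier results of these data known. Alternatives were sharing within 50 or 250 bp, scores of at least 10, equal-sized mutant lists, 1 summit per run within 500 bp, absence within 1 kb, stricter and looser motifs, a 50 bp motif window, a 5 kb promoter and Oct6 M151S scores of at least 4. Leaving out soft-masked windows or the repeated string was added after the data were seen. Python 3.11.15, numpy 2.4.6, pandas 2.3.3 and matplotlib 3.10.9 were used. On simulated data all 3000 planted motif copies were found.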

Additional observations from a re-analysis of the deposited data

How the results depend on the processing

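Of 288 recomputed values of 35 results, 230 kept their direction and their side of counting error, and 9 results did so under every alternative run. Differences are in points, mutant-shared sites minus the other class; where none is said, the cause of a change was not tested. No paired analysis was possible because every group had 1 library.

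With both mutant lists held to the size of the Oct4 day 1 list, 397 mutant-shared sites remained by construction. Many changes came with this setting. It counts an Oct4 S151M summit below the cut as absent, so Oct4defSox2-only sites then took in sites with a weaker summit. Against Oct4defSox2-only sites the difference became -2.85 for SoxOct, -5.40 for Oct6 M151S, -12.6 for Sox2 with Oct4-SK and -3.78 with Oct6-SK at day 1. At day 5 these Sox2 values were -6.75 and -6.18. All of these were past counting error, the day 5 ones unlike those reported. Within counting error were -1.42 for the octamer, 0.54 for promoters, -3.56 for AP-1 and -0.69 for KLF strings. Against sites also bound by Oct4 it became 8.09 for MORE or MORE+1, and 8.09 in the high score band, both past counting error. The other values against that class given here were within counting error. These were -1.22 for the octamer, 0.96 for no POU motif, -2.64 for single Sox and -1.22 for AP-1 strings. For Sox2 they were -2.09 in Oct6-SK cells at day 1 and -1.45 in Oct4defSox2-SK cells at day 5. For MORE arms they were -9.09 for ATGA and 4.26 for ATGC in both.

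The MORE or MORE+1 difference from sites also bound by Oct4 was within counting error as reported. It was -1.42 with sharing within 250 bp and -1.43 in the 50 bp window, both past counting error. It was 0.55 and 0.51 with 1 mismatch fewer or more, 0.89 in little-masked windows and 0.75 without the repeated string; in the high score band it was 0.68, 1.02 and 1.08 with 1 mismatch fewer and under the last 2 settings. The octamer difference was -0.16 within 250 bp, -0.18 in the 50 bp window and -0.13 in little-masked windows, and with 1 mismatch more it was -6.05, past counting error. The difference in sites with no POU motif was 0.40 with 1 mismatch fewer.

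For AP-1 strings the difference was -0.16, -0.20 and -0.15 against sites also bound by Oct4 (50 bp window, little-masked windows, no repeated string), and 1.42, 1.68, 1.09 and 1.11 against Oct4defSox2-only sites (within 50 and 250 bp, 50 bp window, no repeated string), these 4 past counting error. Against sites also bound by Oct4, the KLF difference was -1.05 within 50 bp, -0.84 in little-masked windows and -0.73 without the repeated string. Each of these was past counting error. Against the same class, single Sox strings gave -0.98 with scores of at least 10, -1.01 in little-masked windows and -0.99 without the repeated string. Against Oct4defSox2-only sites they gave -0.58 in the 50 bp window. None of these single Sox values was past counting error.

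For Sox2 in Oct4defSox2-SK cells at day 1 it was -0.35 within 250 bp and -0.087 with absence within 1 kb against sites also bound by Oct4, and -0.79 within 250 bp against Oct4defSox2-only sites. At day 5 it was -0.72 within 50 bp and -0.22 within 250 bp against sites also bound by Oct4. With scores of at least 10 it was -2.75 at day 1 and -7.47 at day 5 against Oct4defSox2-only sites. In Oct6-SK cells it was 0.10 at day 1 with scores of at least 10 and 0.034 at day 5 within 50 bp, both against Oct4defSox2-only sites. For promoters it was 0.092 within 250 bp against sites also bound by Oct4 and -0.71 with scores of at least 10 against Oct4defSox2-only sites.

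Some differences that stayed past counting error changed in size by over 1.5 times. With 1 mismatch fewer or more, SoxOct gave -2.01 and -19.9 against sites also bound by Oct4 and 0.91 and 13.3 against Oct4defSox2-only sites, and the octamer with 1 more gave 20.2 against the latter. Sites with no POU motif gave -9.49 with 1 mismatch fewer and -37.7 with equal-sized lists, and single Sox strings -4.37 with those lists, all against Oct4defSox2-only sites. Within 50 bp, within 250 bp and with scores of at least 10, Oct6 M151S gave -2.84, -8.34 and -0.60 against sites also bound by Oct4 and 0.96, 3.34 and 0.26 against Oct4defSox2-only sites, and Sox2 in Oct4-SK cells at day 1 gave 2.31, 7.39 and 2.54 against the latter. Against sites also bound by Oct4, within 50 bp and with scores of at least 10, Sox2 gave -6.77 and -8.10 in Oct4-SK cells at day 1 and -4.61 and -4.62 at day 5, and in Oct6-SK cells -1.69 and -1.30 at day 1 and -1.43 and -1.19 at day 5.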
